A study of Mus musculus with 6 samples.

Results

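Retinoic acid is made, bound, degraded and sensed by a small set of proteins. The RNA of 10 of their genes was followed here in GFP-positive cells sorted from the ganglionic eminences of mouse embryos. The 10 genes are Crabp1 and Crabp2 (cellular binding proteins), Aldh1a3 (synthesis), Cyp26b1 (degradation), Rara, Rarb and Rarg (retinoic acid receptors, RARs), and Rxra, Rxrb and Rxrg (retinoid X receptors, RXRs). They were selected because Crabp2 and Cyp26b1 differed between the genotypes in opposite directions in these same libraries. The genotype differences of the 10 genes are therefore given as a description, and no p is given for a single one of them. Each gene was found as 1 locus by its symbol, so 10 of 29606 loci are described.

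The study asked how loss of CCP1 alters migrating interneurons. CCP1 is a carboxypeptidase that removes glutamate side chains from proteins such as tubulin. The study reports that it also trims the gene-encoded glutamate stretch at the end of MLCK, the myosin light chain kinase. There were 3 CCP1 cKO libraries (CCP1 lox/lox with the transgene Dlx5,6 CRE GFP) and 3 WT libraries (CCP1 Wt/Wt with the same transgene). Embryos of both groups were at E13.5, had the strain label MF1 and carried that transgene. In it, Dlx5,6 regulatory sequence drives Cre and GFP in the GABAergic lineage of the ventral forebrain. The ganglionic eminences were dissociated and GFP-positive cells were collected by FACS, so the RNA comes from a sorted population and not from single cells, and the deletion occurs only where Cre is active. In the floxed allele, exons 20 and 21 of Agtpbp1, the gene of CCP1, lie between loxP sites. A legend of the study describes the sequenced samples as embryos of independent females. Xist, expressed in female cells, had 70.9 to 137 FPKM in 6 of 6 libraries, and the Y-linked Ddx3y was above 1 FPKM in 5 of 6 (0.269 FPKM in CCP1 cKO replicate 1, up to 5.89 FPKM elsewhere), so n counts libraries here and not single embryos. In bulk RNA of this kind, fewer cells of a type and less RNA per cell cannot be told apart.

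In cells, retinol is taken up and oxidized to retinaldehyde, and retinaldehyde dehydrogenases such as ALDH1A3 turn it into retinoic acid. CRABP2 carries retinoic acid to nuclear receptors, while CRABP1 is linked to holding it in the cytoplasm and to its breakdown, which CYP26 enzymes carry out. RARs bind DNA together with RXRs at direct repeats of a short half-site, and RXRs also pair with other nuclear receptors. In the embryonic mouse forebrain, Aldh1a3 is known from the lateral ganglionic eminence, and Rarb and Rxrg are known from the developing striatum.

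Rarb is itself a classical direct target of retinoic acid in the mouse, through a repeat close to the start of 1 of its transcripts, and that stretch is shown because it is the only sequence among the promoters of these genes that matched a receptor motif. The RefSeq promoter table (GRCm38.p6; 250 bases before to 50 after each start) held 15 promoters of 8 of the genes: all but Crabp2 and Aldh1a3. They were searched on both strands for direct repeats of the degenerate nuclear receptor half-site with a spacer of 5, 2 or 1 bases, and for TATAAA. The sequence below runs 5′ to 3′ from 93 bases before the start to 1 base before it, on the minus strand, at chr14:16575477-16575569, and capitals mark the repeat with a spacer of 5, which lies 53 to 37 bases before the start.
Rarb promoter: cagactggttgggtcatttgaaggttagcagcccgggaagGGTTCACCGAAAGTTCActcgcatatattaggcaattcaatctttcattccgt
A repeat with a spacer of 5 was present in 32 of 32851 RefSeq promoters (0.0974%), one with a spacer of 2 in 0.268% and one with a spacer of 1 in 0.222%. TATAAA was present in 13.6% of all promoters and, among these genes, in that of Cyp26b1, 139 to 134 bases before its RefSeq start. The measured locus of Cyp26b1 begins upstream of that start, so the match lies nearer to the beginning of the locus. These letter matches say nothing of binding in these cells.

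The 10 genes spanned a wide range of levels. Values are FPKM, fragment numbers scaled to transcript length and library size, so levels can be set against each other between genes. In the mean of the 6 libraries Crabp2 was highest, at 55.9 FPKM, above 90.9% of the 13200 loci that averaged 1 FPKM or more. The locus of Rxrb followed at 24.9 FPKM, then Rara at 14.03, Crabp1 at 11.3, Aldh1a3 at 8.07 and Rxra at 6.43 FPKM. Rarb had 3.30, Rxrg 1.40, Rarg 1.12 and Cyp26b1 1.08 FPKM. The highest gene was thus a binding protein. Cyp26b1 was the lowest only through its CCP1 cKO libraries: its mean was 0.716 FPKM in cKO cells and 1.45 FPKM in WT cells, where Rarg was lowest at 1.08 FPKM.

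Neighbours in this order were compared within each library. Of the 9 neighbouring pairs, 5 kept their order in 6 of 6 libraries: Crabp2 above the Rxrb locus, the Rxrb locus above Rara, Aldh1a3 above Rxra, Rxra above Rarb, and Rarb above Rxrg. Each of them had p = 0.0312 in a two-sided exact sign-flip test of log2(FPKM + 1), the smallest p that 6 libraries allow, and 0.0562 after Benjamini-Hochberg adjustment over the 9 pairs, so 0 of 9 passed at 0.05. The order tested was taken from the means of these same libraries, so these p-values add nothing to the counts of libraries in order. Rara was above Crabp1, and Crabp1 above Aldh1a3, in 5 of 6 libraries (exact p = 0.0625 and adjusted p = 0.0804 for both). Rxrg was above Rarg in 4 of 6 libraries (exact p = 0.219). The order of Rarg and Cyp26b1 split by genotype: Rarg was above Cyp26b1 in 3 of 3 CCP1 cKO libraries and below it in 3 of 3 WT libraries. That split contains the selected difference of Cyp26b1 and is given as a description, and the exact p of 0.75 over the 6 pooled libraries does not show it.

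**Figure D1:**
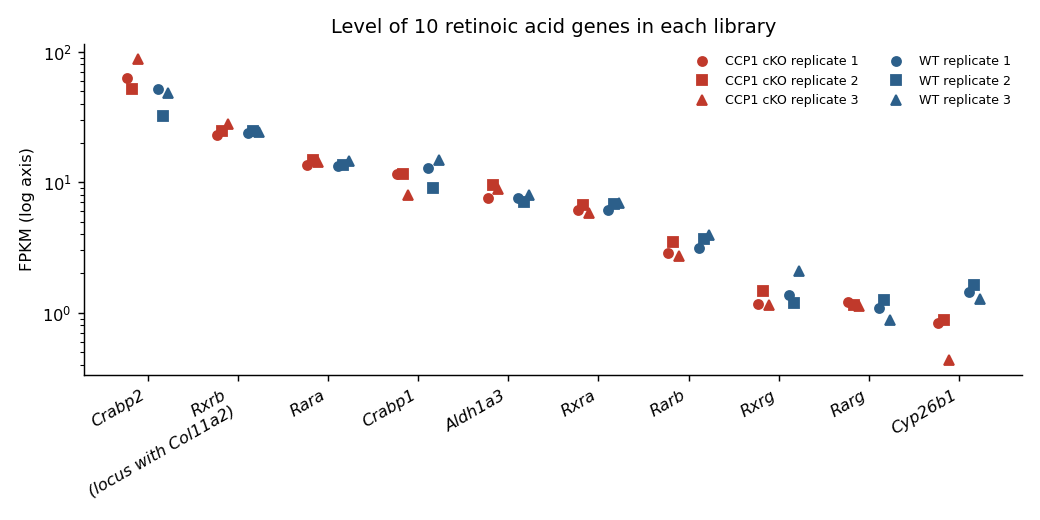
FPKM on a log axis of the 10 genes in each library, ordered by their mean over 6 libraries, with CCP1 cKO in red to the left of WT in blue and the symbol shape giving the replicate number. Crabp2 lies at the top, Cyp26b1 falls below Rarg in CCP1 cKO libraries and above it in WT libraries, and Crabp2 and Cyp26b1 are the only genes of the 10 whose genotypes do not overlap.

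The cellular binding proteins differed from each other in level and in pattern. Crabp2 (chr3:87948693-87953372, mm10) had 62.8, 52.2 and 88.0 FPKM in the CCP1 cKO libraries and 51.9, 32.1 and 48.3 FPKM in the WT libraries (values are given in the order of replicates 1, 2 and 3 throughout). All CCP1 cKO libraries were above all WT libraries, but CCP1 cKO replicate 2 exceeded WT replicate 1 by only 0.202 FPKM. The means were 67.7 ± 18.4 FPKM in cKO cells and 44.1 ± 10.6 FPKM in WT (SD, n = 3 each), a ratio of 1.53. On the scale of log2(FPKM + 1), which understates the change of low genes, the difference was 0.60 (SE 0.24). It was 0.40 without CCP1 cKO replicate 3, the highest library, and 0.39 without WT replicate 2, the lowest.

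Crabp1 (chr9:54764808-54773109) had 11.5, 11.6 and 7.96 FPKM in CCP1 cKO libraries and 12.8, 9.02 and 14.8 FPKM in WT libraries. These values overlapped, with a log2 difference of -0.21 (SE 0.20) and the lowest value in CCP1 cKO replicate 3, the library with the most Crabp2. The level of Crabp2 over that of Crabp1 was therefore 5.47, 4.51 and 11.1 in CCP1 cKO libraries, against 4.07, 3.56 and 3.27 in WT libraries. Crabp2 exceeded Crabp1 in 6 of 6 libraries, and CCP1 cKO replicate 3 stood far above the rest in this ratio. Each gene has 1 isoform in the deposited isoform table. Their GENCODE M21 transcripts (802 bases for Crabp1 and 931 for Crabp2) align over 420 bases with 71.2% identity, and the longest run they share is 11 bases.

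Aldh1a3 (chr7:66390893-66427681), which makes retinoic acid, had 7.56, 9.47 and 8.81 FPKM in CCP1 cKO libraries and 7.64, 7.02 and 7.94 FPKM in WT libraries. The genotypes overlapped through CCP1 cKO replicate 1, and the log2 difference was 0.17 (SE 0.09). Of its 2 isoforms, the main one had 5.76 FPKM in the authors' CCP1 cKO mean and 5.004 in their WT mean, and the other 2.85 in CCP1 cKO and 2.52 in WT. The other dehydrogenases of this step were close to 0: Aldh1a1 had at most 0.0727 FPKM and Aldh1a2 at most 0.0313 FPKM in any library.

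Cyp26b1 (chr6:84571414-84593908), which oxidizes retinoic acid for clearance, had 0.841, 0.872 and 0.435 FPKM in CCP1 cKO libraries, against 1.44, 1.65 and 1.26 FPKM in WT libraries. All CCP1 cKO libraries were below all WT libraries, with a gap of 0.391 FPKM between the nearest, CCP1 cKO replicate 2 and WT replicate 3. The means were 0.716 ± 0.244 FPKM in cKO cells and 1.45 ± 0.191 FPKM in WT (SD, n = 3 each). The log2 difference was -0.52 (SE 0.17) with a pseudocount of 1, and -0.97 with a pseudocount of 0.1, since the gene lies near the lowest level tested. With a mean of 1.08 over 6 libraries it passed the minimum of 1 FPKM only through its WT libraries, next to Rarg at 1.12 FPKM, and none of the 10 genes fell outside the minimum. The main isoform of Cyp26b1 had 0.532 FPKM in the authors' CCP1 cKO mean and 1.19 in their WT mean, and the second 0.183 in CCP1 cKO and 0.260 in WT.

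The related enzymes were nearly undetected. Cyp26a1 had at most 0.0502 FPKM and Cyp26c1 was listed at 0 in all 6 libraries, so Cyp26b1 held nearly all Cyp26 RNA at this level of detection. Aldh1a3 over Cyp26b1, the enzyme of synthesis over that of degradation, was 8.98, 10.9 and 20.3 in CCP1 cKO libraries and 5.31, 4.26 and 6.28 in WT libraries. That ratio did not overlap between the genotypes, and it contains the selected difference of Cyp26b1. Over the 6 libraries, log2(FPKM + 1) of Crabp2 and Cyp26b1 had a Pearson r of -0.91, to which their selected genotype differences contribute.

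**Figure D2:**
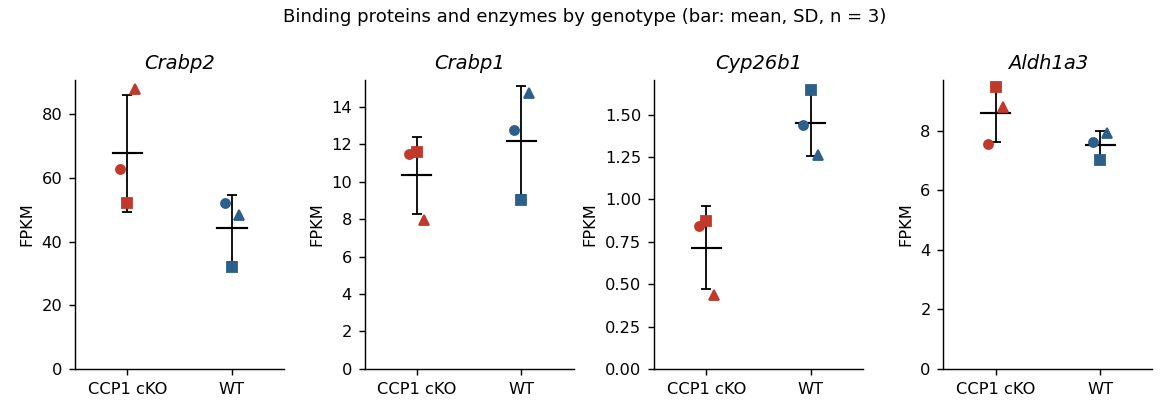
FPKM of Crabp2, Crabp1, Cyp26b1 and Aldh1a3 in the 3 CCP1 cKO libraries (left) and the 3 WT libraries (right), with axes from 0; circle, square and triangle are replicates 1, 2 and 3, and bars give the mean and SD. Crabp2 is higher and Cyp26b1 lower in CCP1 cKO without overlap, while Crabp1 and Aldh1a3 overlap.

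Among the receptors of retinoic acid, Rara (chr11:98927806-98975354) was the main gene. It had 13.6, 14.8 and 14.4 FPKM in CCP1 cKO libraries and 13.3, 13.6 and 14.6 FPKM in WT libraries, with overlap and a log2 difference of 0.04 (SE 0.06). Rara was the steadiest of the 10 genes in CCP1 cKO after Rarg, with a coefficient of variation of 4.30% in CCP1 cKO and 4.75% in WT. Of its 6 isoforms, the main one had 9.04 FPKM in the authors' CCP1 cKO mean and 8.48 in their WT mean.

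Rarb (chr14:16365206-16575300) had 2.87, 3.47 and 2.71 FPKM in CCP1 cKO libraries and 3.12, 3.69 and 3.94 FPKM in WT libraries. The RefSeq start of the promoter given above lies beyond the upstream end of this locus, and it was not matched to a measured isoform. The genotypes overlapped through CCP1 cKO replicate 2, with a log2 difference of -0.19 (SE 0.12). Its 2 isoforms had 2.55 and 0.468 FPKM in the authors' CCP1 cKO means and 2.85 and 0.736 FPKM in their WT means. Rarg (chr15:102234940-102257483) had 1.21, 1.15 and 1.13 FPKM in CCP1 cKO libraries and 1.08, 1.26 and 0.885 FPKM in WT libraries, again overlapping, with a log2 difference of 0.06 (SE 0.14).

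As shares of the summed FPKM of the 3 Rar genes, Rara took 77.3% ± 1.39 in CCP1 cKO and 74.8% ± 1.35 in WT (SD, n = 3 each). Rarb took 16.3% ± 1.49 in CCP1 cKO and 19.3% ± 1.32 in WT, and Rarg 6.32% ± 0.483 in CCP1 cKO and 5.84% ± 1.15 in WT. The sum itself was 18.4 ± 0.894 FPKM in cKO cells and 18.5 ± 0.940 FPKM in WT. The family was thus led by Rara in every library, with a sum that differed between the genotypes by less than the spread between replicates.

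The retinoid X receptors were led by the locus of Rxrb. That locus (chr17:34025944-34067067) also carries Col11a2, a collagen gene, so its values are not those of Rxrb alone. It had 23.2, 24.7 and 28.1 FPKM in CCP1 cKO libraries and 24.0, 24.9 and 24.3 FPKM in WT libraries, with overlap and a log2 difference of 0.05 (SE 0.08). In the authors' isoform means, the 7 isoforms of Rxrb held 21.8 FPKM (86.0% of the locus) in CCP1 cKO and 21.6 FPKM (88.5%) in WT, and the 9 isoforms of Col11a2 held 3.55 FPKM in cKO cells and 2.80 FPKM in WT. Most of the locus was therefore Rxrb in both genotypes, and Rxrb alone still exceeded Rara in those means.

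Rxra (chr2:27677201-27763319) had 6.16, 6.71 and 5.80 FPKM in CCP1 cKO libraries and 6.15, 6.80 and 6.97 FPKM in WT libraries, with a log2 difference of -0.08 (SE 0.08). Rxrg (chr1:167598362-167639623) had 1.16, 1.46 and 1.15 FPKM in CCP1 cKO libraries and 1.36, 1.19 and 2.09 FPKM in WT libraries, with a log2 difference of -0.16 (SE 0.17). Both overlapped between the genotypes, and the highest Rxrg value stood in WT replicate 3 alone. The Rxrb locus took 77.1% ± 2.67 of the summed FPKM of the 3 Rxr loci in CCP1 cKO and 74.9% ± 1.81 in WT, and the sum was 32.8 ± 2.26 FPKM in cKO cells and 32.6 ± 0.974 FPKM in WT (SD, n = 3 each). The Rxr sum over the Rar sum was 1.78 ± 0.124 in CCP1 cKO and 1.76 ± 0.0401 in WT.

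**Figure D3:**
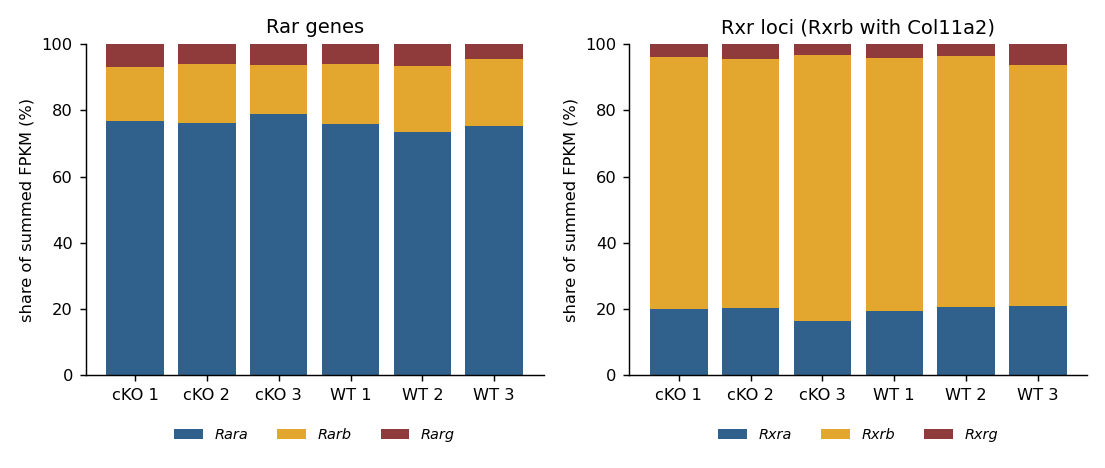
Share of each gene in the summed FPKM (%) of the 3 Rar genes (left) and of the 3 Rxr loci (right), with 1 stacked bar per library and the CCP1 cKO libraries left of the WT libraries. Rara lies between 73.3% and 78.9% of its family, and the Rxrb locus, which includes Col11a2, between 72.8% and 80.1%.

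The genotype comparison over all loci sets the frame for these differences. With limma on log2(FPKM + 1) and Benjamini-Hochberg adjustment over 13200 loci, 12 loci passed at 0.05, a share of 0.0909%. Of the 10 genes, all entered the fit and 0 passed. The count at an unadjusted p under 0.05 was 2 of the 10, beside 4.62% of all loci; Cyp26b1 entered the fit only through its WT libraries. All 3 CCP1 cKO libraries were above all 3 WT libraries for 1 of the 10, beside 3.98% of all loci, and below them for 1 of the 10, beside 5.81%. Nothing is read from these counts, since the selection used this contrast. The log2 differences were positive for 5 genes and negative for 5, and their median was -0.02, as was that of all loci.

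The other 8 genes had log2 differences between -0.21 and 0.17. Their 95% intervals reached down to -0.68 for Crabp1 and up to 0.40 for Rarg, while that of Rara ran from -0.11 to 0.19. The size of difference that 3 libraries a genotype leave room for thus depends on the gene. The targeted gene was lower over its whole locus, while the deleted exons were not measured separately here: Agtpbp1 had 9.68, 10.1 and 9.56 FPKM in CCP1 cKO libraries, against 20.01, 18.9 and 18.1 FPKM in WT libraries (log2 difference -0.89, SE 0.06, adjusted p = 0.00449 with limma). None of the 10 genes lies on chromosome 13, where Agtpbp1 is.

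Other genes of the pathway, which the selection did not use, were counted in 5 lists with 55 genes, of which 28 reached a mean of 1 FPKM. With limma and adjustment over all loci, 0 of 28 were higher and 0 were lower in CCP1 cKO. An unadjusted p under 0.05 was found for 1 of the 28, beside 4.62% of all loci. Their median log2 difference was -0.05, within a range of -0.25 to 0.23. None of the tested genes of these lists therefore passed in either direction.

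Of the genes for uptake, storage and conversion of retinol, 6 of 13 were tested and 0 passed. Stra6, a receptor that takes up retinol, had 3.57, 3.77 and 5.46 FPKM in CCP1 cKO libraries and 3.65, 3.76 and 2.96 FPKM in WT libraries (log2 difference 0.23, adjusted p = 0.976 with limma). Rdh14 differed by -0.13 and Rdh10, which makes the retinaldehyde that ALDH1A3 uses, by 0.06. Of the list on other clearance and binding, 2 of 4 genes were tested and 0 passed. Fabp5, which can carry retinoic acid to PPARδ, averaged 241.6 FPKM in cKO cells and 240.7 FPKM in WT, with a log2 difference of 0.0024, and Ppard differed by -0.07. Fabp5 exceeded Crabp2 in every library, by ratios of 4.48, 4.23 and 2.53 in CCP1 cKO and 5.01, 6.51 and 5.23 in WT.

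All 12 corepressors and coactivators were tested and 0 passed. Ncor1, a corepressor that RARs without ligand recruit, had 28.5, 29.996 and 26.5 FPKM in CCP1 cKO libraries, against 31.6, 35.1 and 30.9 FPKM in WT libraries. These values did not overlap, but the log2 difference of -0.19 (SE 0.08) had an adjusted p of 0.976 with limma. Ncoa3, a coactivator, was the other of the 28 genes without overlap, at 7.95, 7.96 and 7.68 FPKM in CCP1 cKO libraries and 8.21, 9.32 and 8.33 FPKM in WT libraries. Thus 2 of the 28 were lower in CCP1 cKO without overlap, beside 5.81% of all loci, and 0 were higher, beside 3.98%. Tbl1xr1, a part of the corepressor complex, differed by -0.19 and the coactivator Ncoa1 by -0.20, both with overlap.

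Of the other nuclear receptors that pair with RXR, 4 of 10 were tested and 0 passed, with log2 differences of 0.20 for Nr4a1, 0.10 for Nr4a2 and -0.01 for Nr1h2. Thra, a thyroid hormone receptor, had 126.3 FPKM in the mean of 6 libraries, above every RAR and RXR gene. Of 16 genes known as targets of retinoic acid in other tissues, 4 were tested and 0 passed, and Meis2 and Meis1 differed by -0.06 and 0.02 on the log2 scale. A further 8 of the 16 were listed at 0 in all libraries, among them Hoxb1, which responds to retinoic acid in the hindbrain.

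**Figure D4:**
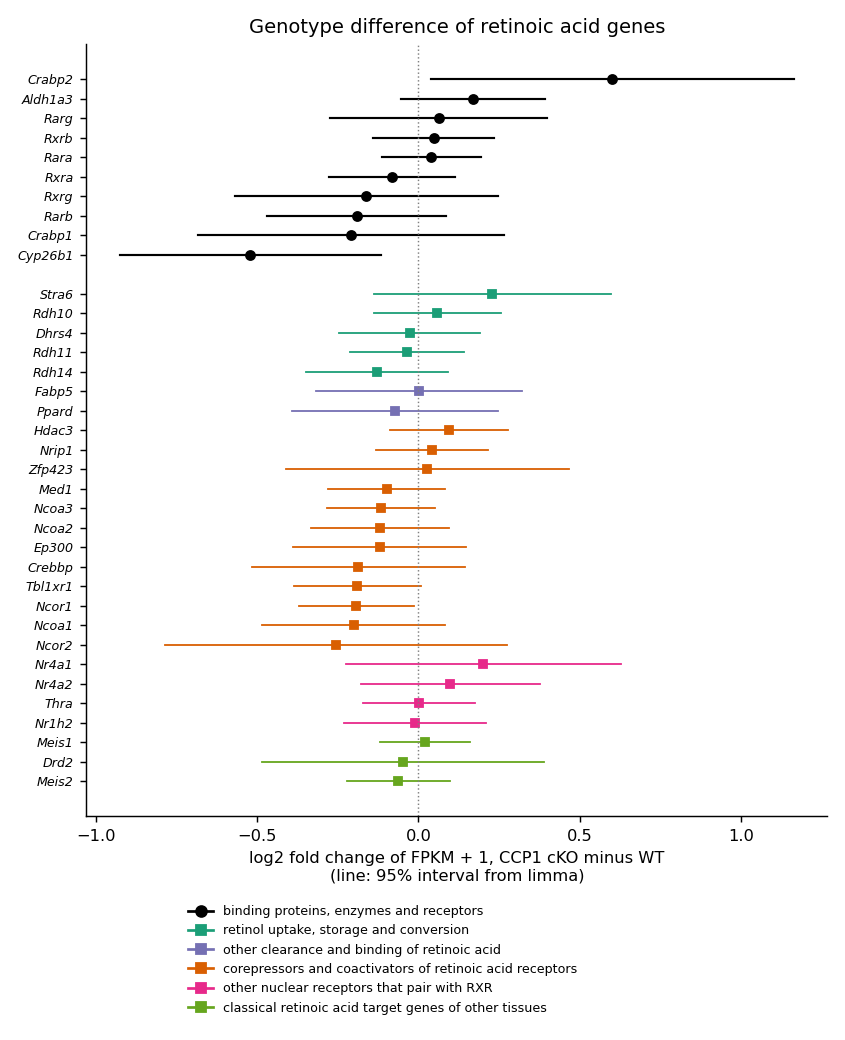
Log2 difference of FPKM + 1 (CCP1 cKO minus WT) with its 95% interval from limma, for the 10 genes (black, top) and 26 of the 28 tested genes of the 5 pathway lists (coloured). Crabp2 at 0.60 and Cyp26b1 at -0.52, which were selected on this difference, lie outside the range of -0.25 to 0.23 of the pathway lists.

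The loci whose level followed that of Crabp2 and Cyp26b1 most closely over the 6 libraries were ranked by the Pearson r of log2(FPKM + 1) among loci that had a single gene name and averaged 5 FPKM or more. For Crabp2 the first of 8270 loci were Snhg6 (r = 0.990), Gbx2 (0.981), Zdhhc4 (0.979), Lypla2 (0.978) and Plin3 (0.976). For Cyp26b1 the first of 8271 were Gtse1 (r = 0.996), Gne (0.995), Spire1 (0.991), Ankrd32 (0.985) and Txlng (0.981). These are the top of a long ranking over only 6 libraries that share one normalization. The genotype difference, on which Crabp2 and Cyp26b1 were selected, was not removed and contributes to these r values. Among the 10 genes themselves, Rarb and Rxra had the highest r (0.97). The lowest was -0.91, both for Rarg and Rxrg and for Crabp2 and Cyp26b1, whose value follows in part from their selection for opposite differences in these libraries.

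Markers of cell types were checked beside these values. In summed FPKM, the GABAergic lineage markers (8 genes, highest Dlx2) ranged from 771 to 870.5 in CCP1 cKO libraries and from 749.6 to 812 in WT libraries. The medial ganglionic eminence list (10 genes, highest Sst) ranged from 497 to 551 in CCP1 cKO and from 501 to 574 in WT. The caudal and lateral list (9 genes, highest Sp9) ranged from 211 to 229 in CCP1 cKO and from 208 to 223 in WT. The labelled lineage was thus present in every library. Radial glia (6 genes, highest Vim) ranged from 367 to 429 in CCP1 cKO and from 378 to 411 in WT. That sum was led by Vim at 173 and Sox2 at 169 FPKM, while Slc1a3 averaged 1.80 and Hes1 0.934 FPKM. Striatal projection neurons (10 genes, highest Bcl11b) ranged from 175 to 185 in CCP1 cKO and from 178 to 207 in WT. These markers were thus present too. Whether the cells that carried them belonged to the labelled lineage was not tested.

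Some markers did not overlap between the genotypes. The 8 endothelial genes, all under 1 FPKM in the mean and highest for Cldn5 at 0.323 FPKM, summed to 0.782, 0.508 and 0.549 FPKM in CCP1 cKO libraries, against 1.70, 1.85 and 1.11 FPKM in WT libraries. Of them, 5 of 8 were lower in CCP1 cKO without overlap (Cdh5, Cldn5, Kdr, Tek and Tie1), as Cyp26b1 was, beside 4.28% of the 11373 loci that averaged above 0 and under 1 FPKM. Cdh5 was at 0 in CCP1 cKO replicate 2. Pecam1, Flt1 and Emcn overlapped, and Emcn had 0.0596, 0.0520 and 0 FPKM in CCP1 cKO libraries and 0.0432, 0.0351 and 0 FPKM in WT libraries. Lhx8, a transcription factor of the medial ganglionic eminence, had 80.4, 70.9 and 91.9 FPKM in CCP1 cKO libraries, against 63.95, 55.7 and 68.8 FPKM in WT libraries, with its highest and lowest values in the same libraries as those of Crabp2. Lhx8 was the only gene of its list of 10 without overlap. Of the 10 striatal genes, Bcl11b was lower and Drd1 higher without overlap, with log2 differences of -0.17 and 0.24. That is 1 of 10 each way, beside 5.81% lower and 3.98% higher of the loci averaging 1 FPKM or more. Single genes of other lists, all averaging under 1 FPKM, did not overlap either. Of the 12 meninges genes, Slc6a13 was higher and Foxc1 lower. Of the 9 microglia genes, Aif1 was higher and Cx3cr1 lower, and the rest had lower means in CCP1 cKO with overlap. Of the 10 cortical excitatory genes, Neurog1 was higher. Among loci averaging above 0 and under 1 FPKM, 4.28% were lower without overlap, and the share that was higher was not counted. The part of these cell types in the differences of Crabp2 and Cyp26b1 was not tested.

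The sums of other lists varied between libraries without separating the genotypes. The 5 Zic genes of septum and preoptic area (highest Zic1) summed to 96.0, 52.5 and 70.9 FPKM in cKO cells and 106, 44.7 and 51.1 FPKM in WT, high in replicate 1 of both. Cortical excitatory markers (10 genes, highest Neurod6) summed to 33.8, 25.2 and 16.9 FPKM in cKO cells and 38.3, 44.2 and 10.5 FPKM in WT. Their lowest sum stood in a WT library and the next lowest in a CCP1 cKO library. The sums were at most 2.69 FPKM for meninges (12 genes, highest Col1a2), 2.01 for pericytes (7 genes, highest Pdgfrb), 1.82 for microglia (9 genes, highest C1qb), 4.48 for choroid plexus and cortical hem (8 genes, highest Otx2) and 34.5 for red blood cells (7 genes, highest Hbb-y).

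**Figure D5:**
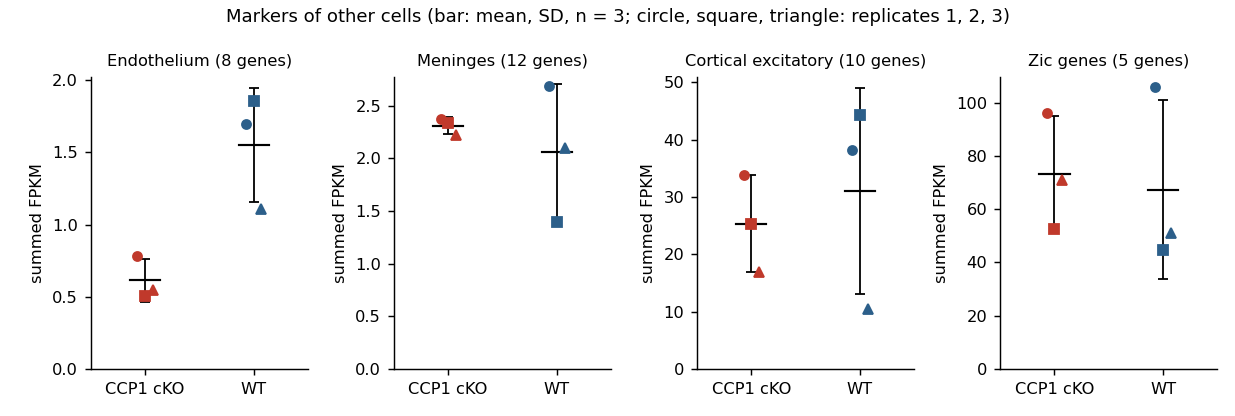
Summed FPKM of marker genes of endothelium, meninges, the cortical excitatory lineage and Zic genes in CCP1 cKO (left) and WT (right) libraries, with axes from 0; circle, square and triangle are replicates 1, 2 and 3, and bars give the mean and SD. The endothelial sums do not overlap, at 0.508 to 0.782 in CCP1 cKO and 1.11 to 1.85 in WT, while the other 3 lists overlap.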

How the data were processed

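RNA of sorted GFP-positive cells was sequenced in 3 CCP1 cKO and 3 WT libraries. Per the labels and the methods, ribosomal RNA was depleted, libraries were made with a stranded total RNA kit and sequenced paired-end, and reads were aligned with Bowtie2 in the Tuxedo workflow. The submitters' processing notes name the build mm10 and bcl2fastq. For the versions and the annotation, the sources used here give nothing. The authors deposited FPKM per locus and library, and a mean FPKM per isoform and genotype, whose lost decimal points were restored where the isoforms sum to their locus in only 1 way. This could not be done for Rarg in CCP1 cKO. The deposited p-values, q-values and fold changes of the authors' own comparison were not used.

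Each gene was matched by symbol, taking the longest locus if several, and 1 was added to each start. The genotypes were compared with limma 3.58.1 in R 4.3.3 (eBayes, trend on) at loci averaging 1 FPKM or more over 6 libraries, on values of log2(FPKM + 1), genotype as the only term, with Benjamini-Hochberg adjustment at 0.05. The procedure was tested on simulated data. Of the marker genes, Esam, Foxp1, Six3 and Hes5 were left out because they share a locus with another gene. The order of levels was tested with SciPy 1.17.1 in Python 3.11.15, tables were handled with NumPy 2.4.6 and pandas 2.3.3, and plots were drawn with Matplotlib 3.10.9.

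The 10 genes, the 5 pathway lists and the 13 marker lists were chosen with earlier results of these data known. Named beyond the 10 genes were, of each pathway list, up to 3 genes with the smallest p, of each marker list the highest gene, and the 5 loci most like Crabp2 and Cyp26b1, and a few results that this rule or the plots would include are not reported here. The genes at or near 0, Ncoa3, Thra, Lhx8, Bcl11b, Drd1, the other markers without overlap, Xist, Ddx3y and the endothelial genes were singled out after their values were seen. Alternatives were pseudocounts of 0.1 and 0.5, no filter, a mean of at least 5 FPKM, equal medians, quantile normalization, library weights, no trend, a replicate block, leaving out each library in turn and both replicate 1 libraries.

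No counting intervals are given, as the absolute depth is unknown. Steps between low FPKM values gave depths of 0.726 to 1.14 relative to CCP1 cKO replicate 1. Libraries summed to between 447510 and 542953 FPKM, of which the top 10 loci took 13.2% to 28.3%.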

Additional observations from a re-analysis of the deposited data

How the results depend on the processing

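Under 16 alternatives, 0 of the 10 genes and 0 of the pathway genes passed the adjusted threshold with limma, and 0 to 2 of the 10 had an unadjusted p under 0.05. The count was 0 only without CCP1 cKO replicate 3, which had both the highest Crabp2 and the lowest Cyp26b1 value. Without that library, the log2 differences were 0.40 for Crabp2 and -0.40 for Cyp26b1. The log2 difference of Crabp2 stayed positive, between 0.37 with library weights and 0.77, and that of Cyp26b1 negative, between -0.97 and -0.40. Cyp26b1 moved by more than the spread between replicates with a pseudocount of 0.1 (-0.97) and of 0.5 (-0.70), as a smaller pseudocount compresses low values less. With a minimum mean of 5 FPKM, Cyp26b1, Rarb, Rarg and Rxrg could not be fitted. Of the other 8 genes, 6 kept their sign throughout, while Rarg was at -0.0045 without WT replicate 3 and the Rxrb locus at -0.03 without CCP1 cKO replicate 3. Neighbouring pairs that kept their order numbered 5 to 7 of 9.

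Over all loci, 12 passed, against 24 with library weights and 5 to 16 when 1 library was left out, with 5 without CCP1 cKO replicate 3. The cause was not tested. With the replicate number as a block, 16 loci passed and the difference of Crabp2 was 0.60 (SE 0.12). Same-numbered libraries of the genotypes had correlations of 0.32, 0.11 and 0.036 in their deviations from the group means, so the numbers were not taken as pairs. A genotype of 3 libraries and an unknown depth limit what can be said of genes near 1 FPKM such as Cyp26b1, Rarg and Rxrg.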
